A study of Mus musculus with 12 samples.

Results

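The genes described here encode the subunits of respiratory chain complexes I, II and III and of the ATP synthase, complex V, together with assembly factors of complex I. They were taken by symbol: every probe whose platform gene symbol starts with Ndufa, Ndufb, Ndufc, Ndufs, Ndufv, Uqcr or Atp5, or is Sdha, Sdhb, Sdhc or Sdhd. The rule used names and no measured values. It found 114 of 45281 probes, which stand for 71 genes. Complex I has 36 of them, complex I assembly factors (symbols starting with Ndufaf) 8, complex II 4, complex III 7 and complex V 16.

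Expression was measured on Illumina bead arrays in F9, a line of mouse teratocarcinoma cells that retinoic acid turns into endoderm. Control cells with wild-type Kdm3a and cells labelled pRS-kdm3a, with Kdm3a knocked down, were each sampled at 3 stages. These were untreated cells (0 h), cells given retinoic acid for 3 days (72 h), and cells kept a further 3 days in retinoic acid with cAMP (6 d). Each of the 6 groups has 2 arrays, labelled as biological replicates, and no label says what the control cells carry, or whether the knock-down cells are 1 clone or a pool. Kdm3a encodes a demethylase of histone H3 lysine 9.

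Complexes I and II feed electrons from NADH and succinate to ubiquinone, complex III passes them on to cytochrome c, and complex V uses the proton gradient built by the chain to make ATP. Most subunits of complexes I, III and V, and all subunits of complex II, are encoded in the nucleus. The others are encoded in mitochondrial DNA. Embryonic stem and teratocarcinoma cells rely heavily on glycolysis, and many cell types raise oxidative metabolism as they differentiate.

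The arrays of 72 h stood apart before any comparison. Their 95th percentiles of raw intensity were 2162 to 2533, against 908.4 to 1720 on the others. Over 19450 probes detected on no array, the 4 arrays of 72 h correlated with each other at 0.444 to 0.52. In comparisons with 72 h, an effect of the stage and an effect of the arrays therefore cannot be told apart. The second replicates of untreated knock-down cells and of both 6 d groups correlated with each other at 0.427 to 0.449, and the other 5 arrays at 0.266 to 0.352. Kdm3a was lower in the knock-down on every array of each stage, with log2 differences of -1.07 (0 h), -1.73 (72 h) and -1.57 (6 d). The limma adjusted p was 0.123, 0.0262 and 0.0675. Averaged over the stages the difference was -1.45 (limma adjusted p = 5.78e-04). All 7 markers of undifferentiated cells were detected at 0 h in both cell types, and 6 of them still at 72 h and at 6 d. Of 11 primitive and parietal endoderm markers, 4 in control and 5 in knock-down cells were detected at 0 h, 10 at 72 h and 11 at 6 d. Of 3 blood markers 0 were detected, and of 4 neuroectoderm markers 1 was, in each group. Of 5 fibroblast markers 0 to 2 were detected, depending on the group, and of 5 visceral endoderm markers also 0 to 2.

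Of the 114 probes, 88 were detected on all 12 arrays at a detection p under 0.05, and 11 on none. For 67 of the 71 genes at least 1 probe was detected on at least 2 arrays, and these entered the tests, among 11621 genes in all. The tested probe of 65 of the 67 was detected on all 12 arrays. The exceptions were Ndufb11, undetected on both arrays of untreated knock-down cells, and Atp5k. Atp5k was detected on 8 of the 12 arrays, and on neither array of untreated control cells. The 4 genes that were not tested were Ndufs1, the largest subunit of complex I, Sdha, the flavoprotein of complex II, Uqcrfs1, the Rieske iron-sulphur protein of complex III, and Ndufaf6, an assembly factor. Their probes were not well above background, which says nothing about the level of genes that every respiring cell needs. The probe named Ndufs5-ps is annotated to a pseudogene and was kept because the rule takes it. Ndufa4, which the rule counts with complex I by its name, is now placed with cytochrome c oxidase. Levels are background-corrected, quantile-normalized log2 intensities, so a difference of 1 is a factor of 2, and levels of different probes are not compared.

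In control cells, 0 of the 67 genes changed between 0 h and 72 h of retinoic acid, while 14.8% of all tested genes did (limma, adjusted p under 0.05). At an unadjusted p under 0.05 there were 5 of 67, or 7.46%, against 28.9% of all genes. The median log2 change of the 67 was 0.04, against -0.02 for all genes, and the members ran from -0.67 to 0.87. In 54 of 67 (80.6%) the 95% interval of the change lay wholly within a factor of 2 either way, against 46.8% of all genes. The arrays of the 2 stages did not overlap for 46 of 67 members (68.7%), close to the 66.4% of all genes. These counts depend on how the arrays are put on 1 scale. Median centring makes the median of all 45281 probes equal between arrays. Only 33.6% to 40.8% of the probes were detected on an array, so that median lay at the level of undetected probes. With median centring, which raised the median of all genes at 72 h by 0.58, 20 of 67 members rose and 0 fell, against 36.4% of all genes called, and the members' median was 0.61. Set against the median of all genes, the members stood 0.06 higher with quantile normalization and 0.03 higher with median centring.

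From 72 h to 6 d, with cAMP added, 0 of 67 changed in control cells against 2.53% of all genes, and the median was 0.02. At an unadjusted p under 0.05 there were 4 of 67, against 18.8% of all genes. With median centring, where the median of all genes fell by 0.45, 4 members fell and 0 rose, and 19% of all genes were called. Over the whole course, from 0 h to 6 d, 2 of 67 (2.99%) changed in control cells, against 22.2% of all genes, and both fell, as 10% of all genes did. At an unadjusted p under 0.05 there were 7 of 67, against 34.4%. The median was 0.01, and 55 of 67 intervals lay within a factor of 2. With median centring, which moved the median of all genes by 0.11, 1 rose and 1 fell, and 18.9% of all genes were called.

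**Figure D1:**
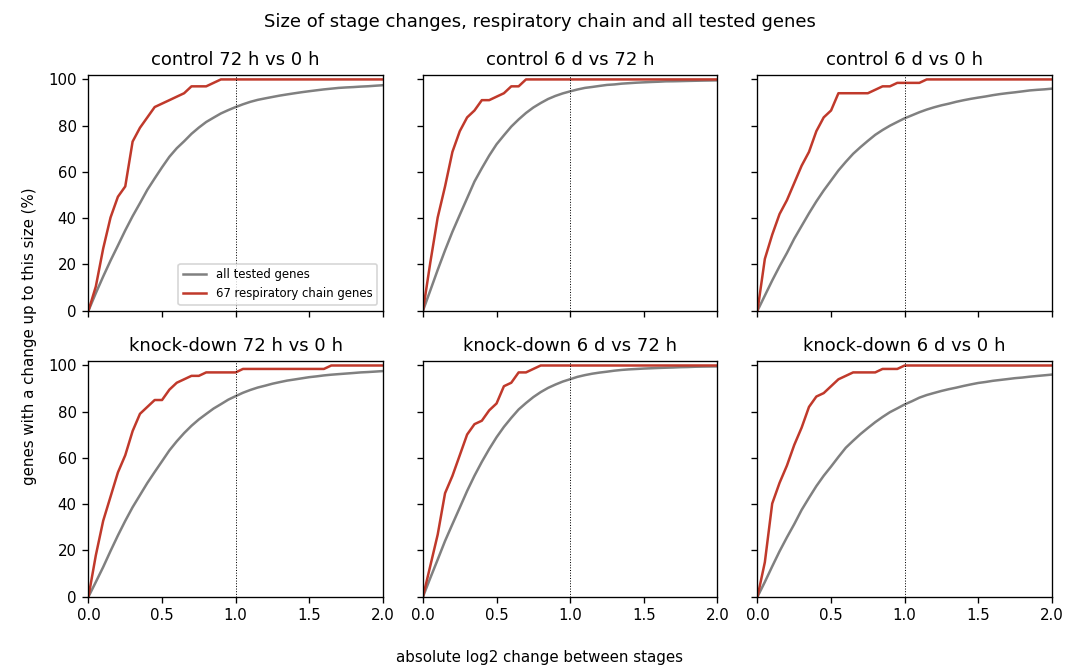
Cumulative share of genes (y axis, %) whose absolute log2 change between 2 stages is up to the value on the x axis, for the 67 respiratory chain genes (red) and all 11621 tested genes (grey), in control (top) and knock-down cells (bottom). The red line lies on or above the grey one throughout every panel, and the dotted line marks a factor of 2.

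In knock-down cells 3 of 67 members (4.48%) rose from 0 h to 72 h and 0 fell. Of all genes 16.4% were called, and 8.79% rose. The median was 0.06 and 57 of 67 intervals lay within a factor of 2. With median centring 28 rose and 0 fell, against 39.8% of all genes called. The members' median was then 0.71 against 0.61 for all genes, so the members stood somewhat above the other genes there. From 72 h to 6 d, 1 of 67 (1.49%) was called, against 3.83% of all genes, and it fell, as 1.53% of all genes did. From 0 h to 6 d 1 of 67 was called, against 22.3% of all genes, and it rose, as 12.1% did. With median centring the counts were 13 that fell in the second interval, against 19.1% of all genes called, and 0 over the whole course, against 19.2%. The 2 cell types have separate arrays, so their stage changes share no controls, but the arrays of 72 h stood apart in both. In bulk RNA, a change in the share of cells that express a gene and a change in its level per cell cannot be told apart.

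Across the 6 stage comparisons, 5 of the 67 genes (7.46%) were called at least once, against 35.4% of all tested genes. The 5 were Ndufb11, Ndufb2, Ndufb9, Ndufaf8 and Uqcrq. Another probe of Ndufb11, of Ndufb2 and of Ndufaf8 was detected on 0 arrays, and another of Uqcrq on 1. These were not tested, so each call rests on a single probe. The difference between the highest and the lowest group mean was under 1 on the log2 scale for 62 of 67 members (92.5%), against 64.2% of all genes, with medians of 0.40 and 0.83. Atp5j2, which encodes subunit f of the ATP synthase membrane part, had a difference of 0.09 between its highest and lowest group mean, the smallest of all 11621 tested genes. Its level was 13.68 and 13.63 on the control arrays at 0 h, then 13.61 and 13.69 at 72 h, then 13.61 and 13.54 at 6 d. In knock-down cells it was 13.73 and 13.60, 13.69 and 13.60, and 13.55 and 13.63. The control arrays of 6 d lay below those of 0 h by less than the gap between the replicates of any group, and every other pair of groups overlapped or touched.

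The steadiness went with brightness. The 47 members with a mean level of at least 10 had differences between group means of 0.09 to 0.67 (median 0.31), and 0 of the 47 were called at any stage, against 28.8% of the 1986 genes this bright. The 20 members under that level had a median difference of 0.76, and 5 of the 20 (25%) were called, against 36.8% of 9635 genes. Dim probes also vary more between replicates, and whether the dim members differ from the bright ones for that reason was not tested.

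**Figure D2:**
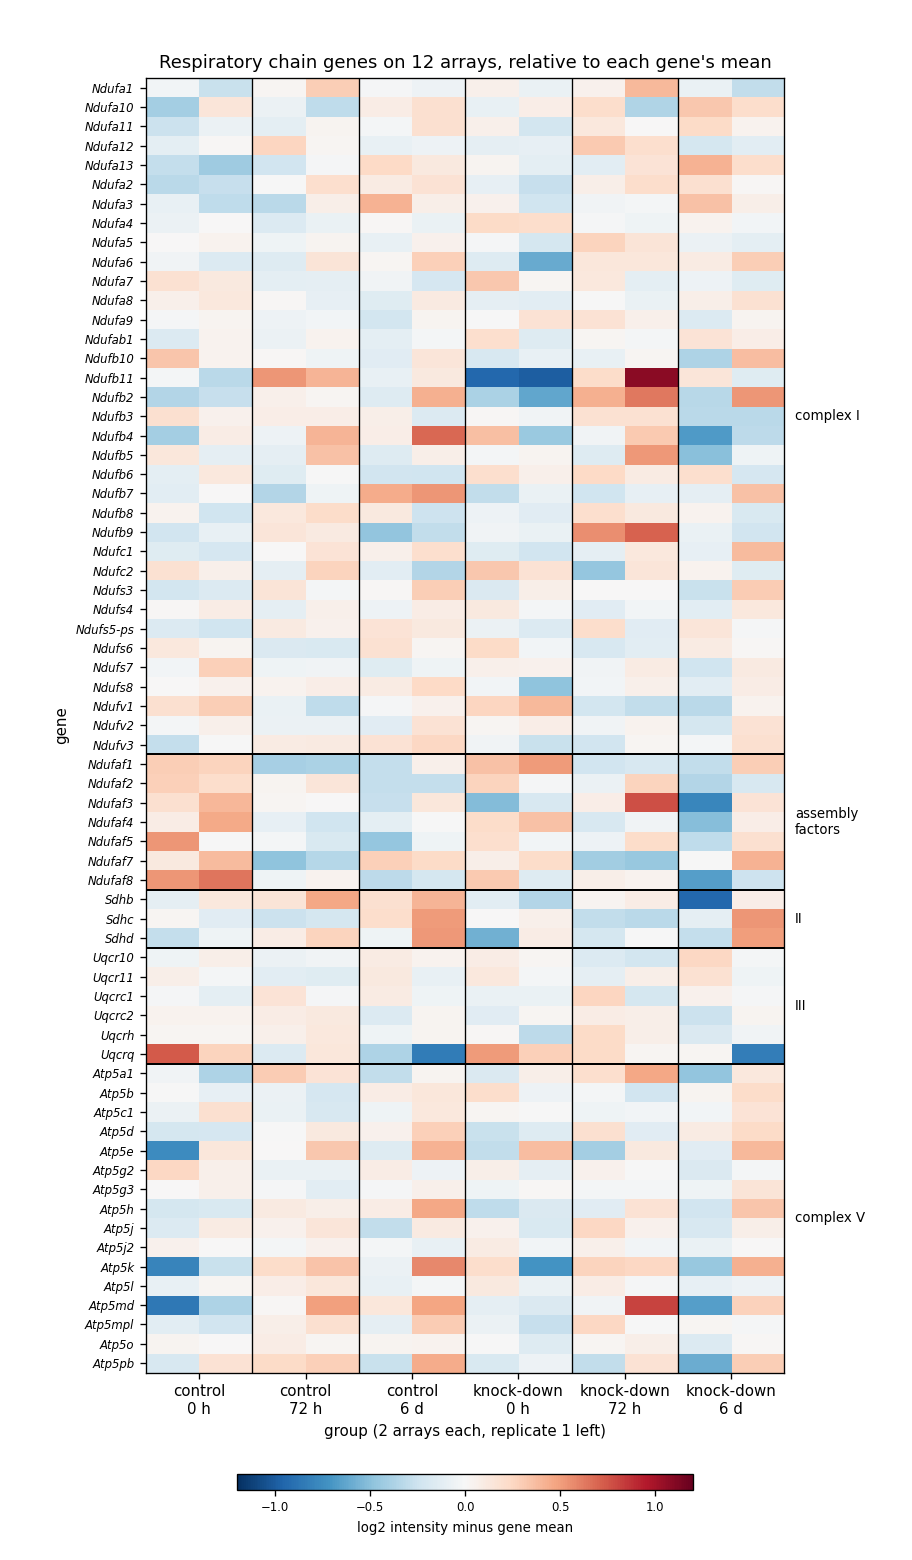
Level of each tested respiratory chain gene on each of the 12 arrays (columns, 2 per group), as log2 intensity minus the gene's mean over the arrays (colour), with genes in rows by complex. Most rows are pale, and the strongest colours are in Ndufb11, Sdhb, Atp5md and Uqcrq.

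Complex I accounted for the calls in knock-down cells. Of its 35 tested genes 3 (8.57%) rose from 0 h to 72 h, close to the 8.79% of all genes. From 72 h to 6 d 1 of 35 fell, against 1.53% of all genes, and from 0 h to 6 d 1 of 35 rose, against 12.1%, while 0 of 35 were called in control cells. The difference between the cell types was tested itself, and 0 of 67 members passed any of the 3 interaction tests, against 0% of all genes, with a smallest adjusted p of 0.875. All 3 risers encode accessory subunits of the membrane arm.

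Ndufb11 read 5.13 and 5.08 on the arrays of untreated knock-down cells, 6.29 and 7.15 at 72 h, and 6.22 and 5.93 at 6 d. In control cells it read 6.05 and 5.75, then 6.60 and 6.48, then 5.99 and 6.19. The untreated knock-down arrays were the lowest of the 12 and undetected, and the 72 h arrays of the knock-down lay apart from each other. Ndufb11 rose by 72 h at least 2.07-fold (fitted log2 change 1.61, SE 0.28, limma adjusted p = 0.00298) and by 6 d at least 1.33-fold (0.97, adjusted p = 0.0284). The call at 72 h held in each of 15 other settings, with changes of 0.56 to 2.04. The call at 6 d held in 8 of 16, and was lost without either replicate of 0 h or without replicate 1 of 6 d (adjusted p of 0.0953, 0.11 and 0.115). In control cells the change by 72 h was 0.64 (adjusted p = 0.154).

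Ndufb2 read 7.47 and 7.23 in untreated knock-down cells and 8.28 and 8.49 at 72 h, with no overlap. Its log2 level rose by 1.03 (SE 0.29, adjusted p = 0.0363). At 6 d its 2 arrays read 7.53 and 8.39, so the level then ranged from that of untreated cells to that of 72 h. Control arrays read 7.50 and 7.58, 7.92 and 7.88, and 7.70 and 8.29. Ndufb9 read 9.56 and 9.52 in untreated knock-down cells, 10.16 and 10.31 at 72 h, and 9.52 and 9.37 at 6 d. It rose by 0.70 (SE 0.19, adjusted p = 0.0318) and then fell by 0.79 (SE 0.19, adjusted p = 0.0484). Control arrays of Ndufb9 read 9.37 and 9.51, 9.74 and 9.70, and 9.13 and 9.31, also highest at 72 h and lowest at 6 d. The calls of Ndufb2 and Ndufb9 were lost when any 1 of the 4 knock-down arrays concerned was left out, with adjusted p of 0.0796 to 0.182 for Ndufb2, and of 0.0939 to 0.169 and 0.0547 to 0.24 for the rise and the fall of Ndufb9.

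**Figure D3:**
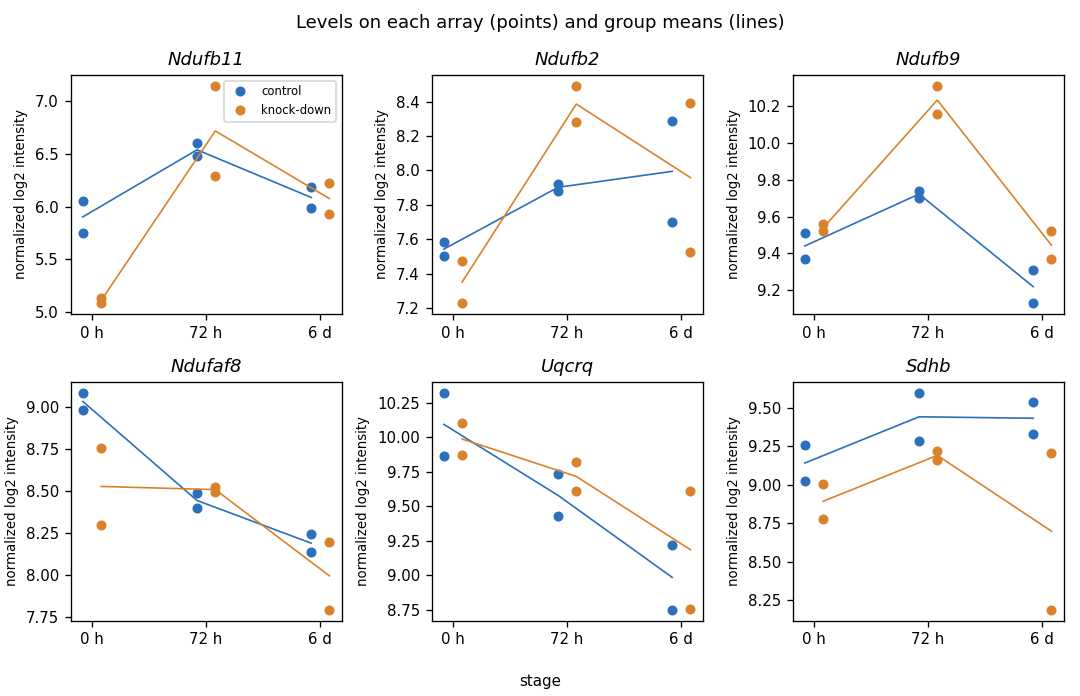
Normalized log2 intensity (y axes, scaled to each gene and not starting at 0) of 6 genes at each stage (x axis) in control (blue) and knock-down cells (orange). Points are single arrays and lines join group means. Ndufb9 peaks at 72 h in both cell types, Uqcrq declines in both, and the 2 knock-down arrays of 6 d lie about 1 unit apart for Sdhb.

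Among the other complex I subunits, Ndufv1, which holds the flavin where NADH is oxidised, read 12.36 and 12.47 in untreated control cells, 12.09 and 11.87 at 72 h, and 12.16 and 12.23 at 6 d. In knock-down cells it read 12.43 and 12.56, 11.96 and 11.88, and 11.85 and 12.22. Both cell types were highest at 0 h, without overlap with 72 h. The changes by 72 h were -0.43 in control and -0.58 in knock-down cells (adjusted p = 0.0837 in the latter), so neither passed. The knock-down change did pass in the authors' processed values (-0.55, adjusted p = 0.0193), with a larger offset (-0.57, adjusted p = 0.0451) and with an intensity trend in the fit (adjusted p = 0.032). With median centring the sign turned, to 0.15 in control and 0.04 in knock-down cells. Ndufab1, the mitochondrial acyl carrier protein that is also a complex I subunit, changed by 0.05 and -0.02 by 72 h in control and knock-down cells, and Ndufa4 by -0.09 and -0.26. Neither passed the threshold.

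The 7 tested assembly factors, which help to build complex I but are not part of it, had values unlike those of the subunits in control cells. All 7 were lower at 72 h than at 0 h with no overlap of arrays. Of all genes 66.4% did not overlap in this comparison, and 6010 of 11621 were lower. The median log2 change of the 7 was -0.44 against 0.05 for the 35 complex I subunits, although 0 of 7 passed over all genes. With median centring 0 of 7 were lower, and the medians were 0.30 and 0.67, so the sign depends on the scaling while the order of these medians did not. At an unadjusted p under 0.05, which 28.9% of all genes reached in either direction, 3 of 7 were lower: Ndufaf1 (-0.67, adjusted p = 0.0838), Ndufaf7 (-0.66, adjusted p = 0.0623), and Ndufaf8 (-0.59, adjusted p = 0.108). In knock-down cells 6 of 7 were lower at 72 h, with a median of -0.03. Ndufaf1 (-0.64) and Ndufaf7 (-0.58) again had the lowest values, whereas Ndufaf3 had 0.78 (adjusted p = 0.133) and Ndufaf8 -0.02. Lower values at 72 h in control cells were not particular to these genes. Of the assembly factors and inhibitors outside the symbol rule, 11 of 15 were lower (median -0.33). Of the biogenesis and mitochondrial DNA genes described below, 15 of 17 were (-0.42). With median centring these medians were 0.47 and 0.39. The lists of complex IV, tricarboxylic acid cycle and outer membrane genes had 0.02, 0.04 and -0.07 without it.

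Ndufaf8, known in human cells as a partner of the assembly factor NDUFAF5, was the 1 assembly factor called. Its level was 8.98 and 9.09 in untreated control cells, 8.40 and 8.49 at 72 h, and 8.14 and 8.24 at 6 d. It fell by 0.85 over the course (SE 0.23, adjusted p = 0.0208). Untreated knock-down cells read 8.76 and 8.30, already under the control arrays, followed by 8.52 and 8.50, then 7.79 and 8.20, and the change to 6 d was -0.53 (adjusted p = 0.118). The control call was lost when any 1 of its 4 arrays was left out (adjusted p 0.0592 to 0.105) and with median centring (-0.62, adjusted p = 0.189).

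Complex II has 4 nuclear genes, of which 3 were tested, and 0 were called in any comparison. Sdhb, the iron-sulphur subunit, read 9.02 and 9.26 in control cells at 0 h, then 9.28 and 9.60 at 72 h, then 9.33 and 9.54 at 6 d. Knock-down cells read 9.00 and 8.78, 9.16 and 9.22, and 8.19 and 9.21. The knock-down arrays lay under the control arrays at each stage, and at 6 d they lay far apart. Sdhc, a membrane anchor, read 11.25 and 11.10 in control cells at 0 h, then 10.97 and 11.02 at 72 h, then 11.44 and 11.75 at 6 d. In knock-down cells it read 11.23 and 11.29, 10.94 and 10.91, and 11.12 and 11.76. The second replicate of both 6 d groups was the higher one, and these are 2 of the 3 arrays that resemble each other. The change from 72 h to 6 d was 0.60 in control cells (SE 0.24, unadjusted p = 0.0283, adjusted p = 0.204). Sdhd, the other anchor, changed by 0.34 and 0.13 by 72 h in control and knock-down cells, and did not pass.

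In complex III, 1 of 6 tested genes was called. Uqcrq, a small subunit near the ubiquinone site, read 10.32 and 9.86 in untreated control cells, 9.43 and 9.73 at 72 h, and 9.22 and 8.75 at 6 d. It fell by 1.11 over the course (SE 0.31, adjusted p = 0.0243). Knock-down cells read 10.10 and 9.87, 9.82 and 9.61, and 9.61 and 8.76, and their change was -0.80 (adjusted p = 0.0854). Every 72 h array lay below every 0 h array of its cell type. The control call was lost without replicate 1 of 0 h (adjusted p = 0.164) or replicate 2 of 6 d (0.139), and held without the other 2 arrays. The core proteins Uqcrc1 and Uqcrc2 did not share that course. Uqcrc1 changed by 0.09 and Uqcrc2 by -0.11 from 0 h to 6 d in control cells, and the 6 genes had a median of -0.02.

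In complex V, 0 of 16 tested genes were called in any comparison (1 at an unadjusted p under 0.05, Atp5md, at 72 h and 6 d in control cells). Atp5b, the catalytic beta subunit, read 14.76 and 14.67 in control cells at 0 h, then 14.70 and 14.56 at 72 h, then 14.85 and 14.89 at 6 d. Knock-down cells read 14.97 and 14.70, 14.74 and 14.54, and 14.80 and 14.98. Its brightest raw value was 68.9% of the highest on any array. Whether the response flattens at such intensities was not tested. Atp5g3 and Atp5g2 encode the same mature ring subunit c behind different import sequences. From 0 h to 6 d, Atp5g3 changed by 0.00 in control and 0.07 in knock-down cells, and Atp5g2 by -0.14 and -0.08. Atp5a1, the alpha subunit, depended on the probe: its brighter probe changed by 0.07 from 0 h to 6 d in control cells and its dimmer probe by -1.22 (unadjusted p = 0.0127). In knock-down cells the same probes changed by -0.12 and -1.02. The dimmer probe of Atp5mpl was also lower, by -0.63 and -0.73, where the brighter one read 0.27 and 0.18. Of 22 members with several tested probes, 8 to 11 had probes of opposite sign in a stage comparison, mostly with small changes.

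Between knock-down and control cells 0 of 67 genes passed the threshold at any stage. Kdm3a itself passed at 72 h and averaged over the stages, but not at 0 h or at 6 d. A single stage without a call therefore does not show an unchanged gene. At 0 h 0 of 67 genes were called, against 0.0516% of all genes, at 72 h 0 of 67 against 0.00861%, and at 6 d 0 of 67 against 0%, all by limma. At an unadjusted p under 0.05 there were 2, 1 and 2 of 67, against 8.15%, 3.45% and 7.85% of all genes. Averaged over the stages, 0 of 67 were called, against 0.413% of all genes, and 2 of 67 (2.99%) had an unadjusted p under 0.05, against 12% of all genes. The median difference was -0.01, and the members ran from -0.41 to 0.28. For 67 of 67 the 95% interval of the averaged difference lay within a factor of 2 either way, against 96% of all genes. At single stages the same held for 61, 63 and 63 of the 67.

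The 3 members with the smallest unadjusted p in the averaged effect were Ndufb9 (0.28, SE 0.11, adjusted p = 0.342), Sdhb (-0.41, SE 0.17, adjusted p = 0.384) and Ndufb6, another accessory subunit of complex I (0.20, adjusted p = 0.588). Both Sdhb probes that passed the filter gave lower values in the knock-down, -0.41 and -0.33. A probe of Sdhb detected on 1 array was not tested. The averaged difference of Sdhb, from its brighter tested probe, was -0.58 without replicate 2 of the 6 d knock-down and -0.24 without replicate 1. It passed the threshold in 0 of the fits that kept both arrays of that group. At 0 h the smallest p belonged to Ndufb11 (-0.80, adjusted p = 0.421), undetected in the knock-down, Ndufaf8 (-0.51, adjusted p = 0.592) and Ndufaf3 (-0.65, adjusted p = 0.711). At 72 h they were Ndufb9 (0.51), Ndufb2 (0.48) and Ndufaf3 (0.41), each with an adjusted p of 1. At 6 d they were Ndufb4 (-0.88, adjusted p = 0.524), Sdhb (-0.73, adjusted p = 0.576) and Ndufb7 (-0.37, adjusted p = 0.772). Among other fixed examples the averaged intervals were -0.20 to 0.31 for Atp5b, -0.31 to 0.21 for Ndufv1, -0.29 to 0.25 for Uqcrc1 and -0.23 to 0.25 for Atp5g3. That of Sdhb, with its SE of 0.17, was wider.

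**Figure D4:**
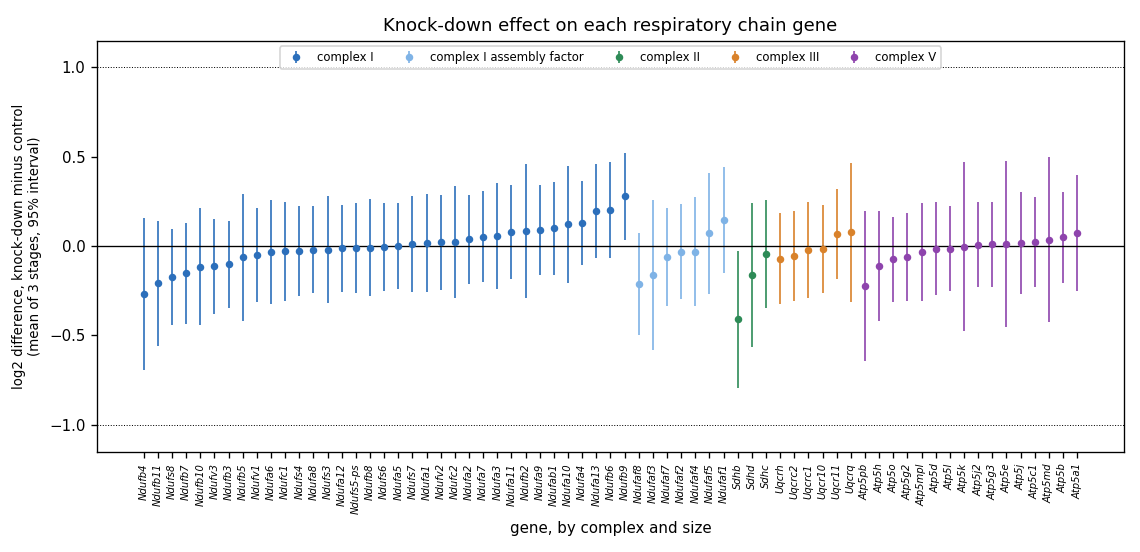
Difference between knock-down and control averaged over the 3 stages (y axis, log2 scale) for each of the 67 genes (x axis, by complex and size). Points are fitted values, bars are 95% intervals, and dotted lines mark a factor of 2. Every bar lies between the dotted lines, and the bars of Ndufb9 and Sdhb do not reach 0.

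The largest member values of the interaction tests were also in dim genes. From 0 h to 72 h the knock-down response exceeded the control response by 1.06 in Ndufaf3 and by 0.98 in Ndufb11 (unadjusted p = 0.0441 and 0.0301, adjusted p of 1 in both). From 0 h to 6 d the smallest p was that of Ndufb4 (-0.999, adjusted p = 0.875). Of 67 members 2, 0 and 0 had an unadjusted p under 0.05 in the interactions from 0 h to 72 h, 72 h to 6 d and 0 h to 6 d, against 3.52%, 1.86% and 5.75% of all genes.

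Sequence motifs that the rule did not use were more frequent in promoters of the set than in all promoters. Each stood in a minority of the set's windows. Whether base composition accounts for the difference was not tested. RefSeq windows of 300 bases, from 250 before to 50 after a gene's start (build GRCm38.p6), were found for 61 of the 71 genes, 66 windows in all. The core motif of NRF1, a regulator of nuclear respiratory genes, stood on either strand of 18 of 66 windows (27.3%), against 4.6% of all 32851 windows and 6.38% of those of protein-coding genes. The letters CCGGAAG, bound by ETS factors such as GABP, stood in 16 (24.2%) against 8.86% and 11.6%. The letters AAGATGGC, bound by YY1, stood in 11 (16.7%) against 2.75% and 3.05%. None of these motifs contains another. A match describes the letters only, and says nothing about binding in these cells.

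The windows found for called genes are shown because these genes passed the threshold in a stage comparison, with motif matches in capitals. They are Ndufaf8 (chr11:120098684-120098983, plus strand), Ndufb11 (chrX:20617570-20617869, minus strand) and Ndufb2 (chr6:39592315-39592614, plus strand).
Ndufaf8: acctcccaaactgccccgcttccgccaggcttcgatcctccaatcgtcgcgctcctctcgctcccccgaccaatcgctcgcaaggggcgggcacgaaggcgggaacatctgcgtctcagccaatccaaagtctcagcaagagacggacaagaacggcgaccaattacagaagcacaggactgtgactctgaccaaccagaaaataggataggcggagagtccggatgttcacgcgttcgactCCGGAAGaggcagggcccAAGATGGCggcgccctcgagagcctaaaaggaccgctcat
Ndufb11: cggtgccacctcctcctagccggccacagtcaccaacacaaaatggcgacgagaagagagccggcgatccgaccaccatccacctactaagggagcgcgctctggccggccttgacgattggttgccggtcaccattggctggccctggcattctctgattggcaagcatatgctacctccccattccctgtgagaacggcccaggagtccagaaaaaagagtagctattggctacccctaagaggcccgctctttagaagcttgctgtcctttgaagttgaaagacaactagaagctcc
Ndufb2: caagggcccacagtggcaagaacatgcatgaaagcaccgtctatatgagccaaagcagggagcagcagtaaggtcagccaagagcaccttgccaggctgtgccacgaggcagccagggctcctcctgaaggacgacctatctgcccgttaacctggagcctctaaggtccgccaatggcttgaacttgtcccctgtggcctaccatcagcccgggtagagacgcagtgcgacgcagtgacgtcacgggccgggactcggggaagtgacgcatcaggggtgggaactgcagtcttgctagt
The Ndufaf8 window holds 1 ETS and 1 YY1 match and 0 of NRF1, and the windows of Ndufb11 and Ndufb2 hold 0 of the 3 motifs.

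Other genes of mitochondrial energy metabolism were counted in lists for comparison. Of 18 tested genes of complex IV and cytochrome c, 0 were called between stages in control cells (1 or 2 at an unadjusted p under 0.05 in each comparison), and 1 in knock-down cells, the copper chaperone gene Sco1 (-0.70 from 0 h to 6 d, or 5.56% of the list against 22.3% of all genes). With median centring Sco1 did not pass (-0.43, adjusted p = 0.396). Of 18 genes of the outer membrane, protein import and carriers, 1 rose and 1 fell from 0 h to 6 d in control cells, 11.1% against 22.2% of all genes. They were Mfn2, a fusion protein (0.82), and Tomm40, the import pore (-0.81), which did not pass with median centring (-0.57, adjusted p = 0.234). In knock-down cells 1 rose and 1 fell as well, Mfn2 (0.67) and Timm23 (-1.12), which was undetected at 6 d. With median centring 1 rose and 0 fell there. Of 19 genes of the tricarboxylic acid cycle and pyruvate dehydrogenase, 1 rose and 1 fell over that course in control cells. These were 10.5% against 22.2% of all genes, and both encode kinases that switch pyruvate dehydrogenase off. The log2 level of Pdk1 dropped by 2.57 (SE 0.40, adjusted p = 9.4e-04). Pdk2, undetected at 0 h, had a fitted change of 1.37. In knock-down cells the values were -2.23 and 1.44, and 3 of 19 genes (15.8%) were called, against 22.3% of all genes. The third was Idh3a, a subunit of isocitrate dehydrogenase (-0.92), which did not pass with median centring (-0.59, adjusted p = 0.263).

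Regulators of mitochondrial biogenesis and genes that maintain and read mitochondrial DNA were called at shares of the same order as all genes. Of 17 tested, 3 fell and 1 rose from 0 h to 6 d in control cells, 23.5% against 22.2% of all genes. In knock-down cells 5 fell and 0 rose, 29.4% against 22.3%. Their median changes were -0.64 and -0.53, against -0.03 for all genes in both. Twnk, the helicase of mitochondrial DNA, changed by -1.08 (SE 0.19, adjusted p = 0.00223) in control and by -0.82 (adjusted p = 0.0106) in knock-down cells. Ppargc1b, a coactivator of nuclear respiratory genes, fell by 0.95 and 1.44, and Tfb2m, a transcription factor of mitochondrial DNA, by 0.78 and 0.69. The riser was Esrra, an orphan receptor that acts with such coactivators (0.74, adjusted p = 0.0326). With median centring the medians were -0.40 in control and -0.25 in knock-down cells, and 1 of 17 rose and 1 fell in control cells and 0 and 1 in knock-down cells. Of the genes named, Twnk did not pass in knock-down cells, Ppargc1b in control cells and Tfb2m in either under that scaling. Of 15 assembly factors and inhibitors outside the symbol rule, 2 (13.3%) fell by 72 h in control cells, against 14.8% of all genes called, the complex I factors Ecsit (-0.95) and Foxred1 (-0.86). With median centring neither passed (-0.14, adjusted p = 0.764, and -0.08, adjusted p = 0.852). In knock-down cells 1 of these 15 rose and 1 fell from 0 h to 6 d, against 22.3% of all genes called. They were Tmem70 (0.97) and Ecsit (-0.78), and with median centring 1 rose and 0 fell. In none of the knock-down comparisons was a gene of these lists called, except Coa3 of the complex IV list, at 0 h (-1.45) and averaged over the stages (-1.38).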

How the data were processed

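Probe intensities of 12 Illumina arrays were analysed, 2 for each of 6 groups taken from the sample titles. Per the labels' protocols, biotinylated cRNA was made from 200 ng of total RNA. The authors deposited non-normalized intensities with a detection p-value per probe and array, per the file headers; no source used here names the summarising software. They also deposited processed intensities, which differed from plain quantile normalization of the others by at most 0.7003 units, with column medians of 184.1 to 184.4. These were used as an alternative.

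Background was corrected with limma's nec (version 3.58.1, R version 4.3.3) at an offset of 16, followed by quantile normalization and log2. The offset shrinks changes of dim genes. A probe needed detection at p under 0.05 on at least 2 arrays, and the brightest one stood for each gene, by the platform annotation. All 12 arrays entered 1 limma fit (degrees of freedom: 6 residual, 5.01 prior). P-values were adjusted by Benjamini-Hochberg over the 11621 genes of each of 13 comparisons, at 0.05. "At least" folds set an undetected group at the higher of its own value and the lowest detected value per array. The fit was tested on simulated data, with independent noise of the same spread for every gene and array. Likeness between arrays and a spread that varies with intensity were not simulated.

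Replicate numbers were not used as pairs, because only 7 of 15 pairs of groups had correlations of replicate differences over 0.1 (-0.111 to 0.542). The members, lists and named genes were chosen with earlier results of these data known. Named genes are those past the threshold, the 3 smallest p-values of knock-down comparisons without a call, and fixed examples from each complex, of which some were not analysed here. Precision is limited by the number of arrays. Alternatives were another scaling, offset, filter, probe rule, sample set and block, and leaving out arrays.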

Additional observations from a re-analysis of the deposited data

How the results depend on the processing

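Counts of called respiratory chain genes are small, so single settings move them. With median centring, 20 (control) and 28 (knock-down) of 67 were called from 0 h to 72 h, 4 and 13 from 72 h to 6 d, and 2 and 0 from 0 h to 6 d. In the authors' processed values the counts were 2 and 5, 0 and 2, and 6 and 2. With only the arrays compared they were 6 and 2, 0 and 0, and 1 and 0. With the replicate block, which pairs arrays by number only, they were 2 for control from 0 h to 72 h and 2 for knock-down from 0 h to 6 d, and the other counts stayed within 1.5 times. For knock-down from 0 h to 6 d, an offset of 50 gave 0 and the mean of probes 2. With every probe fitted separately, 0 of 97 were called in the knock-down from 72 h to 6 d. Settings chosen after seeing the data concerned the 3 arrays that resemble each other. A block for them gave 2 for control from 0 h to 72 h, 4 for control from 0 h to 6 d and 2 for knock-down from 0 h to 6 d. Without them the counts were 4 for control from 0 h to 72 h and 3 for knock-down from 72 h to 6 d. Without the 72 h arrays 0 were called in control from 0 h to 6 d. The cause was not tested for any of these.

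Leaving out each array in turn gave 0 to 1 calls in control from 0 h to 6 d, where the full fit gave 2. For the knock-down it gave 1 to 1 from 0 h to 72 h, 0 to 0 from 72 h to 6 d and 0 to 3 from 0 h to 6 d. For the averaged knock-down effect it gave 0 to 1, the call being Sdhb without replicate 2 of the 6 d knock-down. In the 3 single-stage knock-down comparisons and the 3 interactions, 0 members were called under any setting run. Of the called genes, none changed direction in any setting run. Signal over background limited the dim genes: 4 members were not tested, and Ndufb11 and Atp5k were undetected in 1 group each.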
